A study of Mus musculus with 32 samples.

Results

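Tumor-specific T cells isolated from skin were set against the same kind of T cell from a lymph node on day 12. Of the 32 bulk RNA sequencing libraries of the study, 8 were compared, chosen by their labels: 4 labelled Skin and 4 labelled TDLN_D12, for the lymph node. All came from CD8+ Thy1.1+ Pmel T cells. Their receptor is a transgene that recognizes the melanocyte protein gp100, and they can be told from host cells by the Thy1.1 allele. The mice are described as C57BL/6 with melanoma-associated vitiligo, aged 16 weeks in both groups. No day after surgery is given for TDLN_D12, and whether its mice had vitiligo by day 12 is not known here. Skin was taken 45 days after tumor surgery, as was the lymph node of another group of 4, labelled Mem_LN, which served as a second comparison. The event from which day 12 was counted is not stated in the labels. Tissue and time therefore differ together between Skin and TDLN_D12. Skin was minced and digested for 45 minutes at 37 °C with collagenase IV and DNase I, whereas lymph nodes were dissociated mechanically, and digestion cannot be told apart from tissue in either comparison. Whether the 4 samples of a group were 4 animals is not in the labels, and p-values here speak only of the spread from sample to sample, which may be technical.

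CD8+ T cells primed in a draining lymph node divide rapidly, acquire effector functions and leave through the lymph under the pull of sphingosine 1-phosphate, sensed by the receptor S1PR1. Some enter epithelia such as skin and stay as tissue-resident memory cells, which lose S1PR1, carry CD69, which blocks that receptor at the cell surface, and bind E-cadherin of epithelial cells through the integrin CD103, the product of Itgae. TGF-beta is known to induce CD103, and the transcription factors Hobit (Zfp683), Blimp-1 and Runx3 are known to maintain residency in mice. In vitiligo such cells in the epidermis are held to take part in the loss of melanocytes.

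Values are TPM, transcripts of a gene as a share of the library scaled to a sum of 1000000 and corrected for gene length. Read counts were not part of the table, so depth is unknown. Between 20631 and 34211 genes lay above 0 in the skin libraries, and between 26999 and 29024 in the day 12 libraries. The transgenic receptor's Vβ segment, Trbv14, checked after its values were seen, reached 13181, 17214, 15598 and 2257 TPM in skin replicates 1 to 4, against 15574, 15074, 17090.4 and 15380.2 TPM in the day 12 libraries. Cd8a, the CD8 alpha chain, reached 639.5, 918, 744 and 143 TPM in skin and 442 to 525 TPM on day 12. The 16 T cell identity genes summed to 25559, 34547, 30315 and 5618 TPM in skin and to between 28535 and 32881 TPM on day 12.

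A pair of skin libraries stood apart. In skin replicate 4, 49 abundant predicted genes held 50.9% of all TPM, against 6.08% to 10.2% in the other skin libraries and 5.15% to 10.6% on day 12. These genes were chosen by a Gm name and a level above 2000 TPM in some library of the study. Replicate 4 took part in that choice, and the sequences of these genes were not checked. Mitochondrial transcripts held 6.48% in replicate 4, against 1.93% to 2.72% in the other skin libraries and 2.28% to 3.04% on day 12. In skin replicate 3, myeloid and Langerhans cell genes summed to 15860 TPM, against 315 to 1186 TPM in the other skin libraries and 352 to 434 TPM on day 12. Counts below are therefore also given without replicate 4. TPM is a share of the whole library. Low values of T cell genes in replicate 4 are to be read beside its T cell identity sum of 5618 TPM. Keratinocyte genes summed to 3979, 2635, 560 and 9912 TPM in skin, against 29.6 to 35.1 TPM on day 12, with 18 of 19 members called higher and 3 at 0 in all day 12 libraries. Stromal and endothelial genes summed to 126, 235, 534 and 170 TPM in skin, against 35.4 to 48.3 TPM. B cell genes went the other way, with 25.1 to 132 TPM in skin and 215 to 288 TPM on day 12. Each of these 3 sums separated the groups completely (exact two-sided permutation test, p = 0.0286, the smallest that 4 against 4 allows, adjusted p = 0.0524 over 11 lists), as did the erythroid (15.5 to 595 TPM in skin, against 0.69 to 2.42 TPM on day 12), gamma delta T cell (89.8 to 163 TPM, against 43.7 to 58.5 TPM) and CD4 sums (91.3 to 358 TPM, against 37.3 to 38.3 TPM). The erythroid sum was 595 TPM in skin replicate 3, against 15.5, 78.0 and 20.8 TPM in replicates 1, 2 and 4. Limma called 0 of 6 erythroid members tested, with 2 higher at an unadjusted p under 0.05. Of 8 gamma delta members tested, limma called 2 higher and 0 lower. The gamma chain gene Tcrg-C2 had 95.6, 19.0, 61.2 and 62.8 TPM in skin, against 2.38 to 4.26 TPM on day 12. The delta chain gene Trdc overlapped, with 23.7, 19.4, 16.1 and 2.32 TPM in skin, against 16.4 to 27.1 TPM on day 12. Mast cell genes summed to 1.46 to 194 TPM in skin, against 1.13 to 2.67 TPM, and NK cell genes to 131 to 1777 TPM, against 555 to 753 TPM. The largest NK list member was the granzyme gene Gzma, at 1097, 175, 696 and 107 TPM in skin and 551 to 746 TPM on day 12. In skin replicate 3, Fcer1g and Tyrobp of this list reached 616 and 463 TPM. The members Ncr1 and Klrb1c had at most 1.15 TPM in skin and 2.54 TPM on day 12. Most of the CD4 sum was Cd40lg, the CD40 ligand gene, with 282, 335, 145 and 69.0 TPM in skin, against 22.3, 23.0, 23.9 and 23.4 TPM on day 12 (log2 change 2.87 ± 0.42, adjusted p = 1.31e-05). Il2ra, an interleukin 2 receptor chain that regulatory and activated T cells carry, had 46.8, 16.5, 17.8 and 9.60 TPM in skin, against 7.36 to 8.58 TPM on day 12. Its groups did not overlap, but it was not called (log2 change 1.16 ± 0.48, adjusted p = 0.0963). Cd4 itself lay at 0.17 to 3.26 TPM in skin and 0.34 to 0.65 TPM on day 12, and Foxp3, of regulatory T cells, at 0.07 to 0.35 TPM in skin and 0.17 to 0.55 TPM on day 12. The melanocyte list reached 14.7, 12.9, 7.72 and 216 TPM in skin, against 7.19 to 10.4 TPM, with 0 of 9 members called by limma and 3 higher at an unadjusted p under 0.05.

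**Figure D1:**
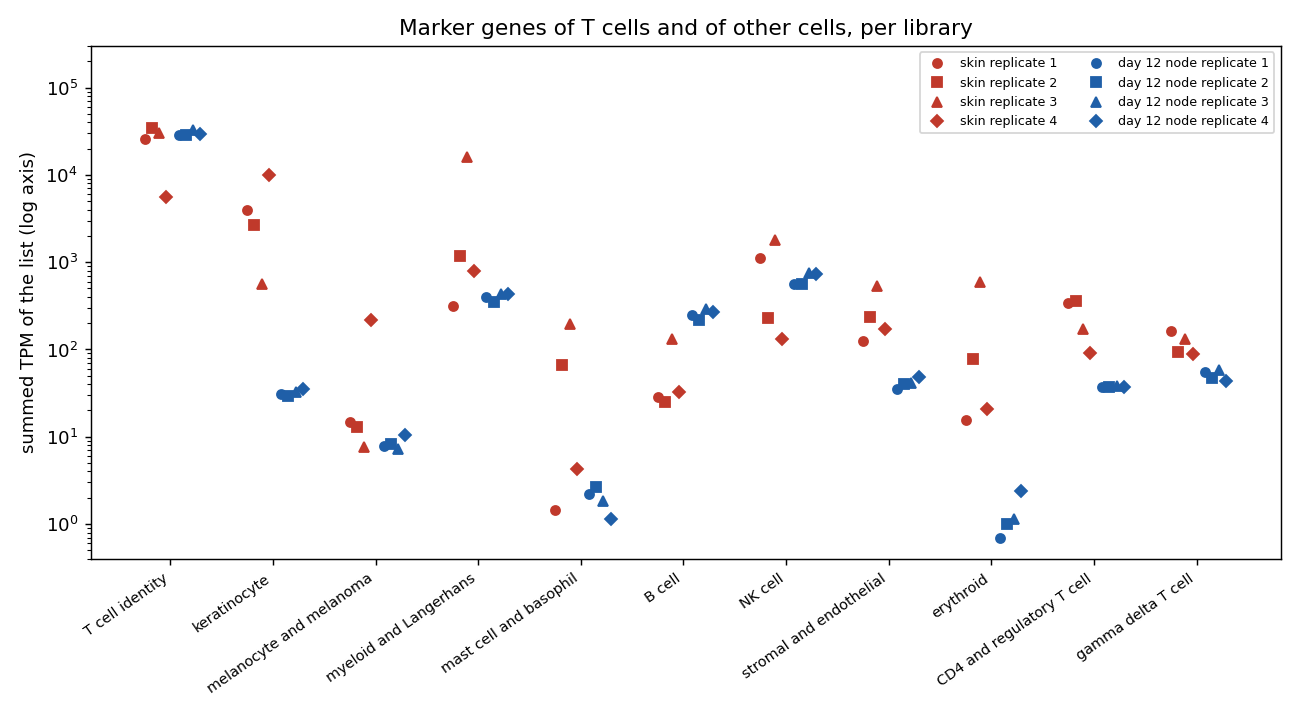
Summed TPM of marker gene lists (log axis) in the 4 skin libraries (red) and the 4 day 12 lymph node libraries (blue), 1 symbol per replicate number. Keratinocyte sums are at least 560 TPM in every skin library and at most 35.1 TPM on day 12; the T cell identity sum of skin replicate 4 is 5618 TPM, below the other 7 libraries.

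Skin differed from the day 12 node at many genes in both directions. Of 19738 genes tested, 1632 (8.27%) were higher and 1838 (9.31%) lower in skin by limma at an adjusted p under 0.05, with a median change of 0.08 on the log2(TPM + 1) scale over all genes. In 14.2% of genes every skin library was above every day 12 library, and in 20.4% every one was below. Without skin replicate 4, 1620 (8.21%) were higher and 1205 (6.1%) lower. With any 1 day 12 library left out instead, 1201 to 1247 were higher and 1373 to 1436 lower. Why the counts fell was not tested. The day 12 libraries were much alike, with a residual SD of 0.303 on the log2 scale, against 0.847 in skin. In bulk RNA, fewer cells of a type and less RNA per cell cannot be told apart. The 23 gene lists below, in 5 of which 1 member was too low to test, are described by counts and medians, to be read against these shares.

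**Figure D2:**
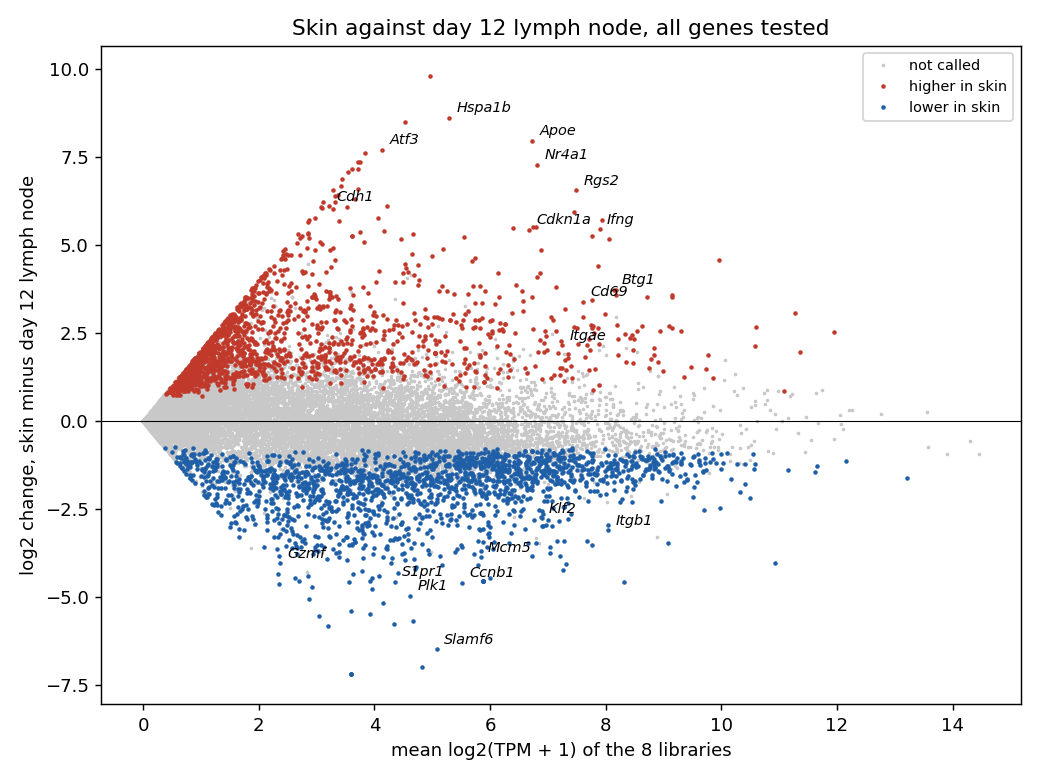
Change between skin and day 12 lymph node (log2, positive where skin is higher) of each gene tested, against its mean log2(TPM + 1) over the 8 libraries; red and blue points passed the limma test. Hspa1b and Nr4a1 lie at 8.63 and 7.29, and Slamf6, Plk1 and S1pr1 lie at -6.49, -4.97 and -4.56.

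Many genes linked to tissue residency were higher in skin, and a number of genes that let T cells leave were lower. Of 37 tested residency genes, 23 were higher and 0 lower, with a median change of 1.91 (24 higher without replicate 4). Cd69 reached 1120.5, 988, 483 and 295 TPM in skin replicates 1 to 4, against 58.9, 62.7, 58.2 and 55.8 TPM in the day 12 libraries (log2 change 3.40 ± 0.46, adjusted p = 4.65e-06). Itgae, the CD103 chain, reached 502, 575, 339 and 107 TPM in skin, against 80.5, 73.9, 78.0 and 53.7 TPM on day 12 (log2 change 2.16 ± 0.61, adjusted p = 0.0119). For both genes the groups did not overlap, and skin replicate 4 was the lowest of the skin libraries. Itga1, the collagen-binding CD49a chain, stood at 49.8, 61.0, 38.9 and 8.24 TPM in skin, against 1.49 to 2.44 TPM on day 12 (log2 change 3.54 ± 0.66, adjusted p = 0.000268). Cdh1, E-cadherin itself, which mouse CD103+ T cells also make, stood at 123, 106, 73.3 and 34.1 TPM in skin, against 0.08 to 0.18 TPM on day 12 (log2 change 6.10 ± 0.55, adjusted p = 5.3e-09). It is also a keratinocyte gene, and the part of keratinocyte RNA in this rise was not tested.

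The chemokine receptor Cxcr6, which holds CD8+ T cells in the epidermis, was already abundant on day 12. It reached 1052, 1244, 1201 and 339.7 TPM in skin, against 286, 268, 292 and 231 TPM on day 12 (log2 change 1.67 ± 0.48, adjusted p = 0.0153), and the groups did not overlap. The call was lost without skin replicate 2, at an adjusted p of 0.0508. Zfp683, encoding Hobit, was low in both places, with 26.2, 16.8, 15.2 and 3.29 TPM in skin, against 4.28, 2.76, 2.62 and 3.42 TPM on day 12 (log2 change 1.68 ± 0.56, adjusted p = 0.034), and the lowest skin library lay within the day 12 range. That call was lost when any 1 of 7 libraries was left out, with adjusted p up to 0.14, and kept without skin replicate 4 (log2 change 2.24, adjusted p = 0.00479). Rgs2, a regulator of G protein signalling found in residency signatures, had 2218, 2905, 2197 and 659 TPM in skin, against 17.0, 19.3, 16.0 and 18.1 TPM on day 12 (log2 change 6.56 ± 0.43, adjusted p = 1.13e-11). Vps37b, of the same signatures, had 149 to 1183 TPM in skin, against 16.1 to 23.8 TPM on day 12 (log2 change 4.86 ± 0.69, adjusted p = 8.64e-06).

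Of 34 egress and circulation genes, 12 were lower in skin and 2 higher, with a median of -1.12 (9 lower and 3 higher without replicate 4). S1pr1 had 1.66, 4.91, 10.1 and 0.80 TPM in skin, against 108, 99.1, 97.6 and 90.0 TPM on day 12 (log2 change -4.56 ± 0.88, adjusted p = 0.000401). Klf2, the transcription factor that drives S1pr1, had 42.5, 57.3, 150.1 and 10.2 TPM in skin, against 326, 286, 315 and 307 TPM on day 12 (log2 change -2.76 ± 0.46, adjusted p = 6.44e-05). Skin replicate 3, the library with myeloid transcripts, held the highest S1pr1 and Klf2 of the skin libraries. Without replicates 3 and 4 the log2 changes of S1pr1 and Klf2 were -4.65 and -2.62 (limma, adjusted p = 0.00377 and 9.16e-06), and the list still held 9 lower and 4 higher genes. Rasgrp2, which activates the integrin switch Rap1, stood at 9.46 to 48.7 TPM in skin, against 331 to 356 TPM on day 12 (log2 change -3.48 ± 0.36, adjusted p = 9.14e-08). Ccr7, the receptor that guides T cells into lymph nodes, did not pass the test although its groups did not overlap, with 9.35, 9.51, 10.2 and 1.60 TPM in skin, against 52.5, 49.5, 60.1 and 41.8 TPM on day 12 (log2 change -2.78 ± 1.24, adjusted p = 0.127). Its standard error comes from the spread within all 8 groups of the model. Ccr7 ran from 0 to 583 TPM among the liver libraries and from 8.5 to 445 TPM among the spleen libraries. Against the direction of its list, Cx3cr1, a receptor of circulating effector cells, was higher at 116, 91.7, 77.6 and 33.0 TPM in skin, against 15.9, 14.2, 14.0 and 11.5 TPM on day 12 (log2 change 2.31 ± 0.54, adjusted p = 0.00278). The other member that rose, Ly6c1 (log2 change 3.67 ± 0.56, adjusted p = 2.07e-05), has a near-identical neighbouring gene, so its reads are uncertain.

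**Figure D3:**
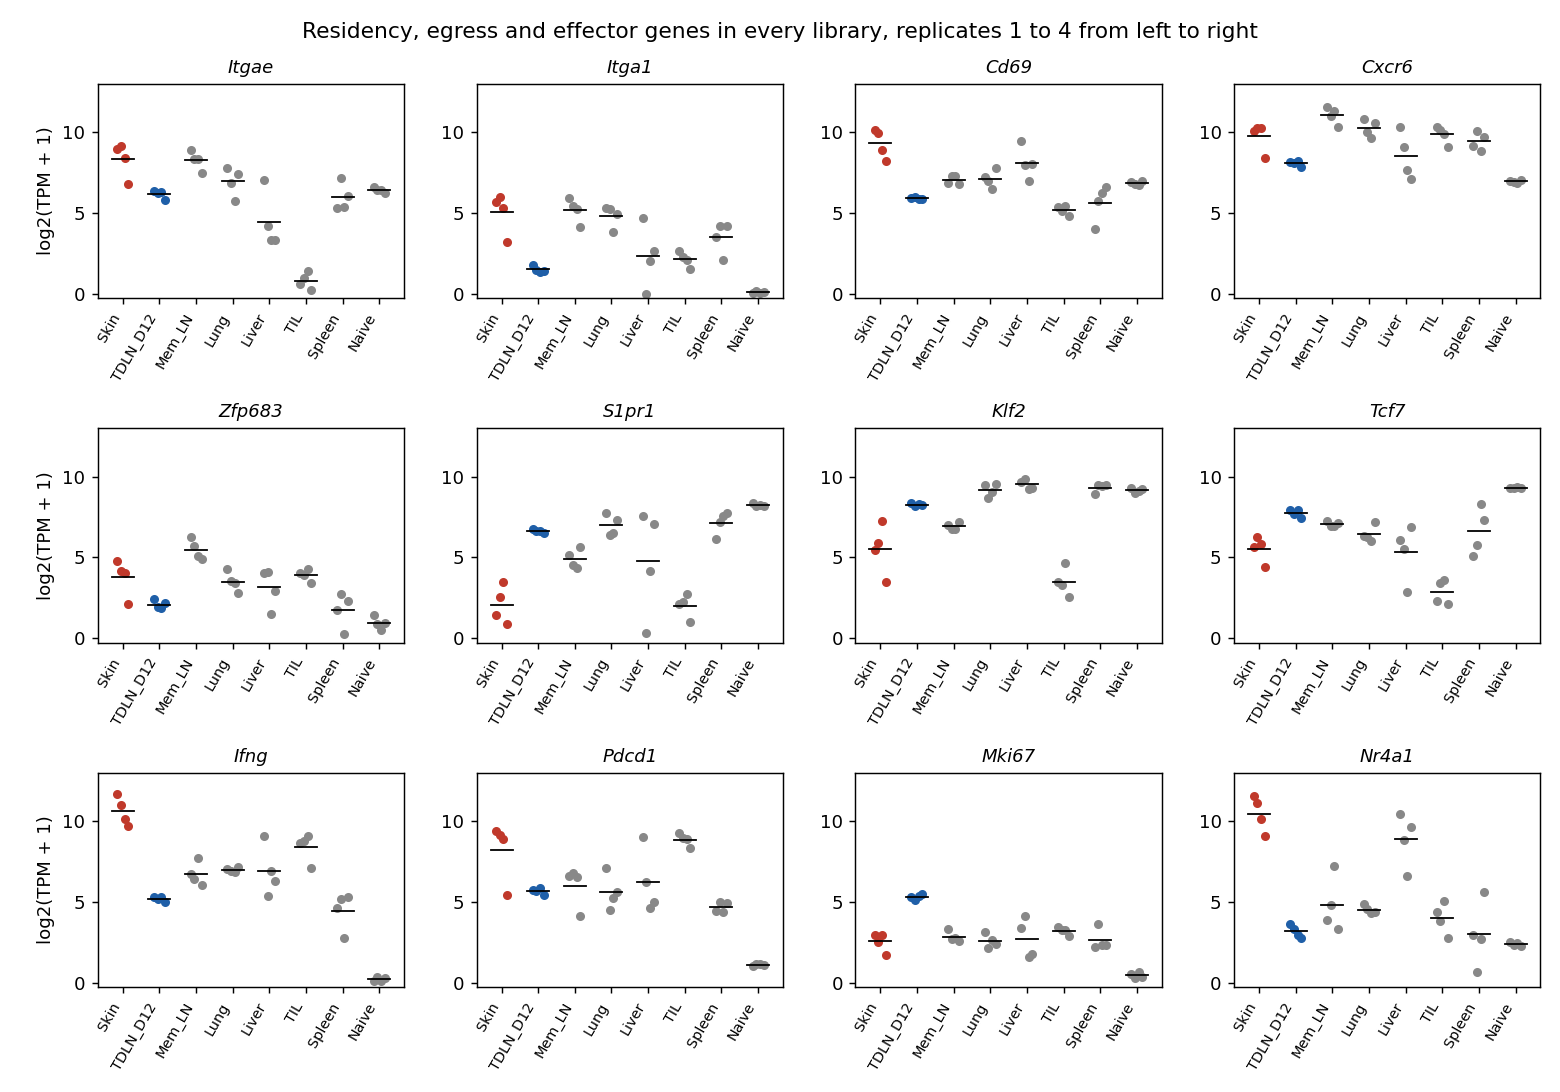
Levels of 12 genes as log2(TPM + 1) in every library of the 8 groups, skin in red and day 12 lymph node in blue, with the group mean as a line. Cd69, Ifng and Nr4a1 lie higher in each skin library than in each day 12 library, S1pr1, Klf2 and Mki67 lower, and Pdcd1 of skin replicate 4 lies inside the day 12 range.

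Genes of cell division were lower in skin than in the day 12 node. Of 36 DNA replication genes 34 were lower in skin, with a median of -3.04, and of 35 mitosis genes also 34, with a median of -3.40; 0 were higher in either list. Without replicate 4 the counts were 32 and 34. Mki67, the proliferation marker, had 6.80, 4.78, 6.86 and 2.29 TPM in skin, against 38.8, 33.7, 39.9 and 43.5 TPM on day 12 (log2 change -2.77 ± 0.44, adjusted p = 3.44e-05). Plk1, the kinase that starts mitosis, had 3.52, 4.44, 2.22 and 3.72 TPM in skin, against 150.0, 135, 149 and 116 TPM on day 12 (log2 change -4.97 ± 0.58, adjusted p = 4.86e-07). Ccnb1, cyclin B1, had 9.07, 12.7, 9.83 and 4.02 TPM in skin, against 246, 233, 242 and 184 TPM on day 12 (log2 change -4.60 ± 0.85, adjusted p = 0.000264). All 4 skin libraries lay far below all 4 day 12 libraries for these genes. The helicase subunit Mcm5 stood at 7.31 to 21.0 TPM in skin, against 179 to 235 TPM on day 12 (log2 change -3.88 ± 0.53, adjusted p = 4.5e-06), the replication licensing factor Cdc6 at 1.29 to 5.71 TPM, against 43.6 to 61.7 TPM (log2 change -3.61 ± 0.64, adjusted p = 0.000148), and Aurka, a kinase of the mitotic spindle, at 1.15 to 6.21 TPM, against 88.7 to 101 TPM (log2 change -4.33 ± 0.71, adjusted p = 6.16e-05). The linker histone gene Hist1h1b, which is switched on in S phase, stood at 0.40 to 3.21 TPM, against 46.1 to 73.2 TPM (log2 change -4.59 ± 0.62, adjusted p = 4.2e-06).

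Promoters of mitosis genes are known for a shared element, the cell cycle genes homology region. Through this element the DREAM and MuvB complexes switch these genes off in resting cells. The same promoters are also known for CCAAT boxes bound by NF-Y. The promoters of Plk1 and Ccnb1 are shown because these kinase and cyclin genes were among the 10 largest decreases. Each runs 5′ to 3′ on the gene's strand over 250 bases before and 50 after the start site in RefSeq's GRCm38.p6, at chr7:122159185-122159484 on the plus strand and chr13:100786437-100786736 on the minus strand, with CCAAT and TTTGAA, searched on both strands, in capitals.
Plk1: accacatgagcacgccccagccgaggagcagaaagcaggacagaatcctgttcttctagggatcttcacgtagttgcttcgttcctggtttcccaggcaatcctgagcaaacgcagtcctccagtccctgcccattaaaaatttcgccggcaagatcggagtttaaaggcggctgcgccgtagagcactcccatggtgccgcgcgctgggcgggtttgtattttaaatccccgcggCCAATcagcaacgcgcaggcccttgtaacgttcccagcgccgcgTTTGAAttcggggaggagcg
Ccnb1: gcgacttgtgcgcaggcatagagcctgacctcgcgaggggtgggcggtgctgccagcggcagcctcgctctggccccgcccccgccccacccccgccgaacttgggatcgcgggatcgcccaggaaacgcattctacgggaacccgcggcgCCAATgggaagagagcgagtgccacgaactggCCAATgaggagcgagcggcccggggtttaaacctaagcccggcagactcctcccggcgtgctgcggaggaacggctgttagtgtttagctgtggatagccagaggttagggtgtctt
In Plk1 a CCAAT begins 14 bases before the start site and a TTTGAA lies after it; in Ccnb1 there are 2 CCAAT and these letters of the second motif are not in this window. Of the mitosis list 28 members had a promoter in the RefSeq table. Of these, 67.9% held TTTGAA, against 18.5% of 22862 promoters of the same length, and 57.1% held both motifs, against 7.21%. Among 23 promoters of the DNA replication list the shares were 8.7% for both motifs and 60.9% for CCAAT, against 38.2% of all promoters for CCAAT. These matches are descriptions and were not set against the expression values.

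Genes that halt the cell cycle moved the other way. Of 24 inhibitor and quiescence genes 11 were higher and 1 lower in skin, with a median of 0.95 (12 and 0 without replicate 4). Cdkn1a, the inhibitor p21, had 1049, 730.0, 827 and 325 TPM in skin, against 15.4, 12.1, 17.2 and 13.9 TPM on day 12 (log2 change 5.44 ± 0.46, adjusted p = 1.34e-09). Btg1, an antiproliferative gene of resting T cells, had 1539, 1581, 1132 and 412 TPM in skin, against 72.6, 78.4, 75.7 and 79.8 TPM on day 12 (log2 change 3.73 ± 0.40, adjusted p = 1.15e-07). Neither gene's groups overlapped. Tsc22d3, the glucocorticoid-induced GILZ, and Tob1, another antiproliferative gene, changed by 3.58 (adjusted p = 1.11e-06) and 3.04 (adjusted p = 8.97e-06). Of the ribosome biogenesis list, which follows growth, 14 of 31 genes were lower and 1 higher with a median of -1.16. Only 7 to 11 were lower with any 1 library left out, with 7 lower without skin replicate 4 or without day 12 replicate 1 or 2. The count was also 7 at a pseudocount of 0.1, with no filter on low values or after rescaling. Dkc1, the pseudouridine synthase dyskerin, was lower in both fits, with 12.4 to 33.8 TPM in skin, against 104 to 132 TPM on day 12 (log2 change -2.38 ± 0.48, adjusted p = 0.000722; without replicate 4 log2 change -2.10, adjusted p = 0.0047).

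**Figure D4:**
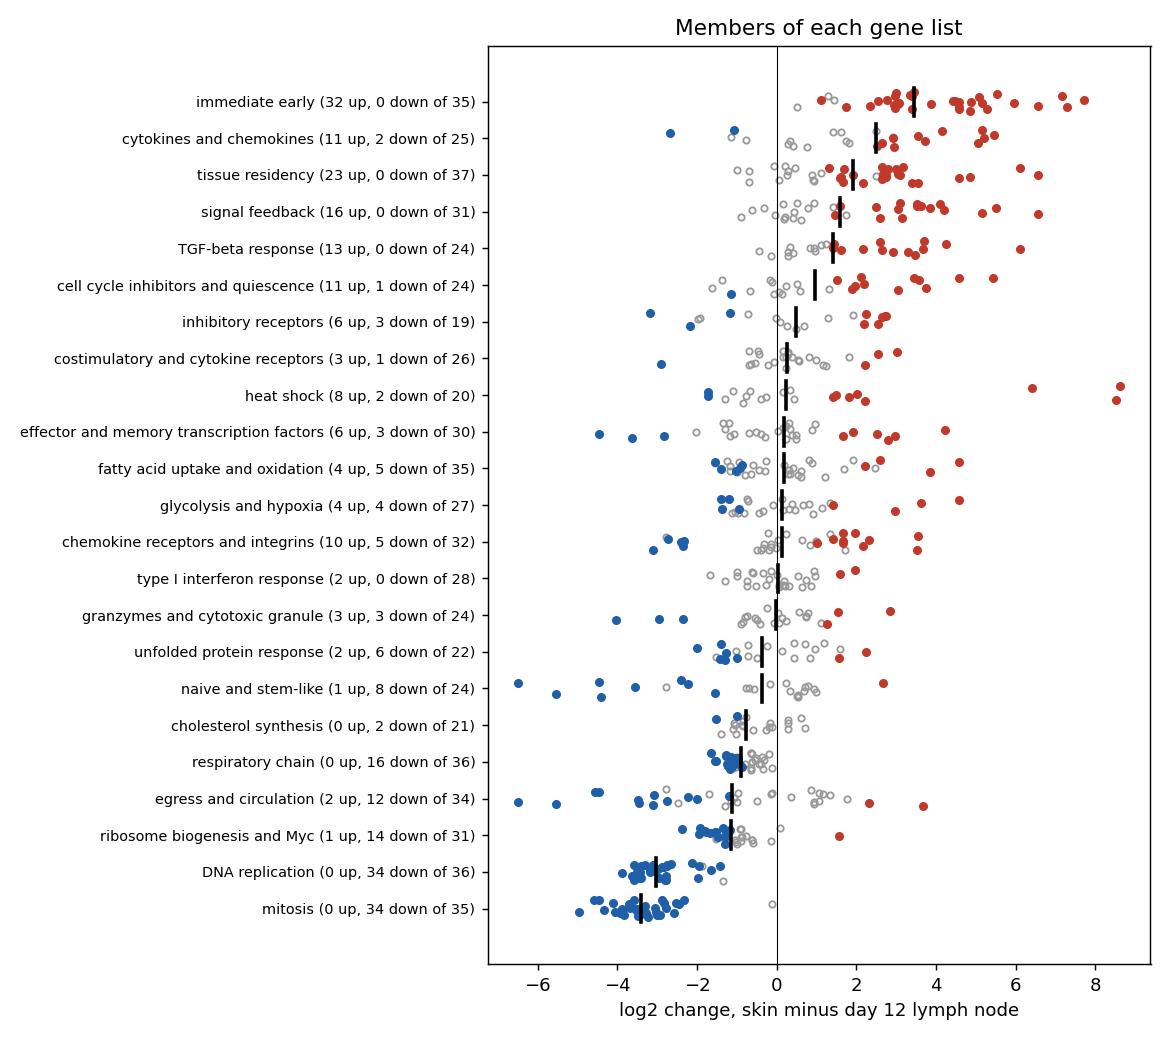
Change between skin and day 12 lymph node (log2, positive where skin is higher) of each tested member of 23 gene lists, sorted by median (black bar); filled points passed the limma test and open points did not. The lists of mitosis and DNA replication lie lowest, at medians of -3.40 and -3.04, and the immediate early list highest, at 3.44.

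The highest median of the 23 lists was that of the immediate early genes. Stress or a signal through the antigen receptor is known to switch them on rapidly, ahead of new protein synthesis. Of 35 of them 32 were higher and 0 lower, with a median of 3.44, and 32 were higher without replicate 4. Nr4a1, encoding the orphan nuclear receptor Nur77, had 2954, 2189, 1124 and 533 TPM in skin, against 11.3, 8.90, 6.77 and 5.93 TPM on day 12 (log2 change 7.29 ± 0.81, adjusted p = 2.17e-07). The AP-1 gene Fos had 1743, 1952, 1242 and 825 TPM in skin, against 23.0, 24.5, 17.8 and 20.1 TPM on day 12 (log2 change 5.95 ± 0.90, adjusted p = 2.06e-05). Atf3, a stress-induced transcription factor, had 422, 274, 377 and 94.8 TPM in skin, against 0.21, 0.23, 0.27 and 0.13 TPM on day 12 (log2 change 7.72 ± 0.73, adjusted p = 1.37e-08). In each case even the lowest skin library, replicate 4, was above every day 12 library by a wide margin. Crem, of the cyclic AMP response, stood at 188 to 1265 TPM in skin, against 11.4 to 16.8 TPM on day 12 (log2 change 5.52 ± 0.50, adjusted p = 7.35e-09), and Ier5l at 321, 413, 378 and 11.0 TPM in skin, against 0.05 to 0.16 TPM on day 12 (log2 change 7.16 ± 0.91, adjusted p = 1.85e-06).

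Genes that damp these signals were higher as well. Of 31 signal feedback genes 16 were higher and 0 lower, with a median of 1.59 (17 higher without replicate 4). Tnfaip3, the NF-kappa B inhibitor A20, had 1453, 1222, 643 and 277 TPM in skin, against 16.7, 17.5, 14.9 and 13.2 TPM on day 12 (log2 change 5.51 ± 0.57, adjusted p = 7.74e-08). The MAP kinase phosphatase gene Dusp1 had 2304, 2522, 1842 and 588 TPM in skin, against 42.0, 44.2, 43.7 and 43.2 TPM on day 12 (log2 change 5.16 ± 0.77, adjusted p = 1.57e-05). The IkB family gene Nfkbid and the phosphatase gene Dusp5 changed by 4.10 (adjusted p = 4.26e-06) and 4.21 (adjusted p = 5.04e-07). Immediate early genes are also known to be induced when tissue is digested warm, and in these groups that step cannot be told apart from the tissue.

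Heat shock genes differed among themselves. Of 20 tested, 8 were higher and 2 lower, with a median of 0.24, and the counts were as many without replicate 4. The inducible Hsp70 genes Hspa1b, with 2888, 1606, 219 and 360.1 TPM in skin, against 0.78, 1.89, 0.96 and 0.50 TPM on day 12 (log2 change 8.63 ± 1.13, adjusted p = 2.55e-06), and Hspa1a, with 1772, 829, 175 and 142 TPM in skin, against 0.14, 0.42, 0.14 and 0.15 TPM on day 12 (log2 change 8.50 ± 1.11, adjusted p = 2.5e-06), showed the 2 largest rises named. They are near-identical copies, so their reads may be split between them in an uncertain way, which leaves their sum as it is. The co-chaperone Dnajb1 stood at 103 to 647 TPM in skin, against 58.8 to 64.8 TPM on day 12 (log2 change 2.01 ± 0.46, adjusted p = 0.00235). Hspb1, a small heat shock gene that keratinocytes also make, reached 97.3, 152, 16.0 and 321 TPM in skin, highest in replicate 4 as were the keratinocyte sums, against 0 to 0.24 TPM on day 12 (log2 change 6.42 ± 0.78, adjusted p = 7.41e-07); the part of keratinocyte RNA in it was not tested. Going the other way, Hspd1, the mitochondrial chaperonin Hsp60, stood at 39.4 to 74.6 TPM in skin, against 152 to 235 TPM on day 12 (log2 change -1.73 ± 0.41, adjusted p = 0.00287).

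The promoters of Nr4a1 and Hspa1a are shown as examples of both inducible groups, from the same RefSeq table and over the same window, at chr15:101266596-101266895 on the plus strand and chr17:34972107-34972406 on the minus strand. Capitals mark CRE half-sites, TGACG on either strand, in Nr4a1, and a heat shock element, GAANNTTC or TTCNNGAA, in Hspa1a.
Nr4a1: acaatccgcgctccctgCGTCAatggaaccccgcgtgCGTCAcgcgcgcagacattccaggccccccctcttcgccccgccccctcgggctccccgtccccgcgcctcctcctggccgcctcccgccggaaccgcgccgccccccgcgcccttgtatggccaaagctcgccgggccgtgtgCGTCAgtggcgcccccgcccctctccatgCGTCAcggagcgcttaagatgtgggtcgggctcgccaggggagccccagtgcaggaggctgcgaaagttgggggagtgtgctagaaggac
Hspa1a: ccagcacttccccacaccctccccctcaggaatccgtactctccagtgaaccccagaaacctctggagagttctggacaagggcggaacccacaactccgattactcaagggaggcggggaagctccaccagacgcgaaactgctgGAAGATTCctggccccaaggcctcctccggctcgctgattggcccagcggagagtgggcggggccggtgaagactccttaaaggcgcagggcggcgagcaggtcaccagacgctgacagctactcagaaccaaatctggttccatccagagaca
Nr4a1 held 4 CRE half-sites and Hspa1a 1 heat shock element. The half-site was in 54.5% of 22 immediate early promoters, against 20.6% of all promoters, and the heat shock element in 60% of 10 heat shock promoters, against 15.2%. The half-site was also in 47.8% of the DNA replication promoters, whose genes fell.

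Several cytokine genes were higher in skin, while granzyme B did not pass the test. Of 25 cytokine and chemokine genes 11 were higher and 2 lower, with a median of 2.49 (16 and 2 without replicate 4). Ifng had 3230.2, 2078, 1100.3 and 839 TPM in skin, against 37.8, 34.8, 37.6 and 30.4 TPM on day 12 (log2 change 5.45 ± 0.59, adjusted p = 1.15e-07). Csf2, encoding GM-CSF, had 104, 61.8, 42.4 and 19.4 TPM in skin, against 0.24, 0.49, 0.65 and 0.62 TPM on day 12 (log2 change 5.04 ± 0.50, adjusted p = 3.88e-08). Areg, the epidermal growth factor family member amphiregulin, stood at 14.7 to 90.0 TPM in skin, against 0.03 to 0.18 TPM on day 12 (log2 change 5.21 ± 0.57, adjusted p = 1.8e-07), and Csf1, the macrophage growth factor, at 42.1 to 276 TPM, against 1.95 to 3.67 TPM (log2 change 5.16 ± 0.63, adjusted p = 7.49e-07). None of these overlapped. Ccl1, a ligand of CCR8, had 1080.4, 633, 1278 and 14.1 TPM in skin, with replicate 4 inside the day 12 range of 11.2 to 36.7 TPM (log2 change 3.71 ± 1.08, adjusted p = 0.0154; without replicate 4 log2 change 5.21, adjusted p = 0.000195; up to adjusted p = 0.0676 when another library was left out). Its receptor Ccr8, which marks skin T cells, had 279, 415, 335 and 84.2 TPM in skin, against 22.6, 20.5, 19.7 and 17.2 TPM on day 12 (log2 change 3.52 ± 0.80, adjusted p = 0.00215). Il21, made by helper cells and by some CD8+ T cells, was lower at 0.08 to 0.27 TPM in skin, against 6.15 to 7.37 TPM on day 12 (log2 change -2.69 ± 0.31, adjusted p = 4.27e-07).

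Of 24 granule and killing genes 3 were higher and 3 lower, shares not far from those of all genes, with a median of -0.01 (4 and 2 without replicate 4). Only 1 was higher without skin replicate 1 or 2, or with only the 2 groups in the model. Gzmb, granzyme B, had 812, 358, 489 and 124 TPM in skin, against 691, 640.0, 751 and 552 TPM on day 12, with overlapping groups and no call (log2 change -0.84 ± 0.55, adjusted p = 0.325). Fasl, the death receptor ligand, rose, with 164, 204, 281 and 87.3 TPM in skin, against 26.8, 24.9, 22.9 and 17.5 TPM on day 12 (log2 change 2.84 ± 0.55, adjusted p = 0.000379). Gzmf fell, with 0 to 0.77 TPM in skin, against 18.4 to 21.1 TPM on day 12 (log2 change -4.04 ± 0.28, adjusted p = 1.82e-11); it lies in a cluster of close paralogs, so its reads may be shared with them. Gzmk, granzyme K, stood at 13.6 to 89.0 TPM, against 224 to 257 TPM (log2 change -2.95 ± 1.04, adjusted p = 0.0483), a call that was lost without skin replicate 2, 3 or 4 or any day 12 library.

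Of 19 inhibitory receptors tested, 6 were higher and 3 lower, with a median of 0.48 (6 and 2, median 1.18, without replicate 4). These counts were not stable. Without skin replicate 1 only 2 were higher. At a pseudocount of 0.1, 0 were called lower by limma, with 5 lower at an unadjusted p under 0.05. Pdcd1, encoding PD-1, had 668, 571, 482 and 42.7 TPM in skin, against 52.9, 49.2, 57.3 and 42.4 TPM on day 12 (log2 change 2.55 ± 0.76, adjusted p = 0.0172). Skin replicates 1, 2 and 3 were far above the day 12 range and replicate 4 was within it. The T cell identity sum of replicate 4 was 5618 TPM, against at least 25559 TPM in every other skin or day 12 library. Without replicate 4 the change of Pdcd1 was larger (limma, log2 change 3.48, adjusted p = 0.00067), and without replicate 1 or 2 it was not called. Klrc1, encoding NKG2A, had 1019, 1292, 1097 and 216 TPM in skin, against 117, 115, 133 and 88.4 TPM on day 12 (log2 change 2.72 ± 0.59, adjusted p = 0.00139). Cd101, a residency marker with inhibitory function, stood at 18.4 to 104 TPM in skin, against 5.02 to 9.17 TPM on day 12 (log2 change 2.73 ± 0.56, adjusted p = 0.000705). Cd160, a receptor for HVEM, was lower, at 28.1, 34.6, 35.3 and 4.10 TPM in skin, against 183, 187, 212 and 178 TPM on day 12 (log2 change -3.19 ± 0.80, adjusted p = 0.00503). Lag3 had at most 2.65 TPM in skin, against 4.26 to 5.19 TPM on day 12 (log2 change -1.17 ± 0.33, adjusted p = 0.0136), and lost its call without replicate 4 (log2 change -1.01, adjusted p = 0.0536). Of 26 costimulatory and cytokine receptor genes 3 were higher and 1 lower (7 and 0 without replicate 4). With all libraries, the share higher was near that of all genes and the share lower was below it. Among those higher was the interferon gamma receptor chain Ifngr1, with 121 to 619 TPM in skin, against 78.0 to 91.8 TPM on day 12 (limma, log2 change 2.20 ± 0.52, adjusted p = 0.00315).

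Genes of naive and stem-like cells that passed the test were mostly lower in skin. Of that list 8 of 24 genes were lower and 1 higher, with a median of -0.37 (6 and 2, median 0.08, without replicate 4). Lef1, a partner of beta-catenin, had 7.53, 3.06, 0.71 and 2.04 TPM in skin, against 78.7, 74.1, 84.1 and 70.9 TPM on day 12 (log2 change -4.41 ± 0.93, adjusted p = 0.00106). Eomes, a T-box factor of memory cells, had 0.68, 0.31, 0.16 and 0.17 TPM in skin, against 29.9, 27.6, 27.4 and 26.9 TPM on day 12 (log2 change -4.46 ± 0.58, adjusted p = 2.54e-06). Slamf6, the surface marker of stem-like cells, had 4.83, 3.33, 1.58 and 1.48 TPM in skin, against 337, 319, 356 and 272 TPM on day 12 (log2 change -6.49 ± 0.92, adjusted p = 8.87e-06). Every skin library lay below every day 12 library for these 3 genes. Tcf7, encoding TCF-1, kept more of its transcript, at 47.9, 74.9, 56.7 and 19.9 TPM in skin, against 241, 206, 241 and 173 TPM on day 12 (log2 change -2.22 ± 0.61, adjusted p = 0.0109), and was not called without replicate 4 (log2 change -1.84, adjusted p = 0.0538). Myb, which maintains stem-like cells, stood at 0.26 to 2.28 TPM in skin, against 16.2 to 22.5 TPM on day 12 (log2 change -3.55 ± 0.56, adjusted p = 3.65e-05).

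Among 30 effector and memory factors 6 were higher and 3 lower, with a median of 0.19 (6 and 2 without replicate 4). Nfil3, a basic leucine zipper factor, had 158, 131, 115 and 35.5 TPM in skin, against 4.17, 3.93, 4.46 and 4.26 TPM on day 12 (log2 change 4.22 ± 0.80, adjusted p = 0.000312). Bhlhe40, a factor of resident cells, had 447, 234, 266 and 45.4 TPM in skin, against 26.7, 24.7, 29.2 and 25.4 TPM on day 12 (log2 change 2.79 ± 0.72, adjusted p = 0.00633). Zeb2, better known from terminal effector cells, rose as well, at 9.70 to 20.8 TPM in skin, against 0.80 to 1.74 TPM on day 12 (log2 change 2.97 ± 0.51, adjusted p = 0.000105). Rora, a nuclear receptor of tissue lymphocytes, stood at 78.5 to 378 TPM in skin, against 30.5 to 39.2 TPM on day 12 (log2 change 2.51 ± 0.59, adjusted p = 0.00287). Tox2 was lower, at 0.07 to 0.77 TPM in skin, against 15.4 to 19.1 TPM on day 12 (log2 change -3.63 ± 0.38, adjusted p = 1.03e-07).

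Of 24 TGF-beta response genes 13 were higher and 0 lower, with a median of 1.42 (15 higher without replicate 4); Itgae and Cdh1, given above, belong to the list. Tgif1 and Skil, both feedback repressors of the pathway, had 401, 349, 237 and 65.8 TPM (log2 change 3.70 ± 0.51, adjusted p = 4.84e-06) and 105, 67.6, 41.2 and 15.5 TPM (log2 change 3.28 ± 0.61, adjusted p = 0.000262) in skin, against 14.2 to 16.7 TPM and 2.97 to 4.72 TPM on day 12. Pmepa1, another inhibitor of the pathway, had 70.7, 91.2, 74.7 and 3.69 TPM in skin, against 1.09, 0.79, 1.16 and 1.27 TPM on day 12 (log2 change 4.24 ± 0.84, adjusted p = 0.000553). Replicate 4 was low but still above the day 12 libraries. Of 32 chemokine receptors and integrins 10 were higher and 5 lower (11 and 3 without replicate 4, and 3 or 4 lower with any other library left out). Itgb1, the integrin chain that pairs with CD49a and with the VLA-4 alpha chain, was lower, at 117, 133, 116 and 34.3 TPM in skin, against 868, 845, 778 and 634 TPM on day 12 (log2 change -3.11 ± 0.51, adjusted p = 5.48e-05), while its partner Itga1 was higher. Cxcr3, the receptor for interferon-induced chemokines, was also lower, at 69.8, 148, 116 and 22.1 TPM in skin, against 364, 360.2, 412 and 330.0 TPM on day 12 (log2 change -2.33 ± 0.49, adjusted p = 0.000954).

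Of 36 nuclear respiratory chain genes 16 were lower and 0 higher, with a median of -0.89 (11 lower without replicate 4 and 8 without replicates 3 and 4). Sdhb, a subunit of succinate dehydrogenase, had 158, 188, 208 and 78.4 TPM in skin, against 431, 415, 475 and 438 TPM on day 12 (log2 change -1.56 ± 0.26, adjusted p = 7.27e-05). Cox5b, of cytochrome c oxidase, stood at 248 to 476 TPM in skin, against 750.1 to 922 TPM on day 12 (log2 change -1.27 ± 0.29, adjusted p = 0.00237). Of 35 genes of fatty acid uptake and oxidation 4 were higher and 5 lower (4 and 3 without replicate 4), shares near those of all genes. Between 2 and 5 were lower with any 1 library left out. Fabp4, a fatty acid binding protein, had 30.6, 40.0, 23.7 and 15.9 TPM in skin, against 0.89, 0.98, 1.04 and 0.70 TPM on day 12 (log2 change 3.84 ± 0.62, adjusted p = 4.65e-05). Hilpda, a droplet-associated inhibitor of lipolysis induced by low oxygen, had 369, 351, 353 and 82.3 TPM in skin, against 9.93, 9.49, 9.75 and 8.99 TPM on day 12 (log2 change 4.56 ± 0.50, adjusted p = 1.39e-07). The oxidation enzyme gene Acadl fell, at 26.9 to 63.0 TPM in skin, against 108 to 133 TPM on day 12 (log2 change -1.40 ± 0.37, adjusted p = 0.0075). Plin2, a lipid droplet coat gene that was called higher, was highest in skin replicates 3 and 4, with 32.4, 14.6, 102 and 89.1 TPM in skin, against 6.32 to 6.97 TPM on day 12 (log2 change 2.59 ± 0.62, adjusted p = 0.00334).

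Glycolysis and hypoxia genes gave 4 higher and 4 lower of 27 (4 and 1 without replicate 4, and 2 lower without day 12 replicate 3). Bnip3, a mitophagy receptor, was higher, at 28.0 to 57.9 TPM in skin, against 4.07 to 5.23 TPM on day 12 (log2 change 2.97 ± 0.41, adjusted p = 5.29e-06). Pgam1, phosphoglycerate mutase, was lower, at 64.7 to 148 TPM in skin, against 260.0 to 315 TPM on day 12 (log2 change -1.40 ± 0.38, adjusted p = 0.00922). Of 22 genes of the unfolded protein response 2 were higher and 6 lower (3 and 3 without replicate 4). The secreted factor Manf had 112 to 233 TPM in skin, against 402 to 436 TPM on day 12 (log2 change -1.27 ± 0.25, adjusted p = 0.00049), and the stress factor Atf4 had 77.4 to 275 TPM, against 59.1 to 68.3 TPM (log2 change 1.55 ± 0.33, adjusted p = 0.00123). Cholesterol synthesis gave 2 lower of 21, a share near that of all genes. Without replicate 4 it gave 0 by limma, where 3 were lower at an unadjusted p under 0.05. Type I interferon response genes gave 2 higher of 28 (3 without replicate 4), a share near that of all genes, with Isg15, a ubiquitin-like modifier, at 102, 77.3, 188 and 14.9 TPM in skin, against 17.3, 14.2, 15.4 and 21.5 TPM on day 12 (log2 change 1.97 ± 0.50, adjusted p = 0.00543) and overlapping groups.

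Among the 10 largest rises were also genes of other cells. Apoe, the lipid carrier that macrophages and skin cells make, had 1089, 492, 3878 and 3880.3 TPM in skin, against 5.57, 5.49, 5.73 and 6.08 TPM on day 12 (log2 change 7.97 ± 0.98, adjusted p = 1.02e-06). It was highest in replicates 3 and 4, and was called without them as well (log2 change 6.77, adjusted p = 0.000213). Apoc1, an apolipoprotein gene that macrophages and liver cells make, had 128, 72.8, 108 and 428 TPM in skin, against 0, 0, 0 and 0.08 TPM on day 12 (log2 change 7.15 ± 1.48, adjusted p = 0.000837). The part of macrophage and skin cell RNA in both was not tested. Fam25c and the beta-defensin gene Defb6 reached 19.1 to 777 TPM and 39.1 to 486 TPM in skin and were listed at 0 in all day 12 libraries, so no fold is given. Calm4, a calmodulin-like gene of epidermis, had 11.6 to 644 TPM in skin, against 0 to 0.14 TPM on day 12 (log2 change 6.69 ± 0.74, adjusted p = 1.89e-07). Fam25c, Defb6 and Calm4 were highest in replicate 4, as were the keratinocyte sums, and the part of keratinocyte RNA in these rises was not tested. Among the largest decreases, Izumo1r, the folate receptor FR4 of regulatory and anergic T cells, had 0.99, 0, 0 and 0.10 TPM in skin, against 62.6, 66.7, 78.2 and 67.2 TPM on day 12 (log2 change -5.84 ± 0.76, adjusted p = 2.32e-06). Zbtb32, a zinc finger repressor of T cell responses, had 0.63, 1.04, 4.20 and 0.49 TPM in skin, against 108, 95.6, 108 and 93.3 TPM on day 12 (log2 change -5.50 ± 0.50, adjusted p = 6.85e-09), and the lymphocyte GTPase gene Gimap7 had 1.79, 0.45, 0.30 and 1.23 TPM, against 75.9, 73.2, 85.7 and 77.6 TPM (log2 change -5.41 ± 0.78, adjusted p = 9.6e-06). None of these 3 overlapped. The pseudogene Rpl38-ps2, with a near-identical coding copy, was called lower too and is uncertain.

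Memory cells of the lymph node 45 days after surgery share their time with skin and their tissue kind with the day 12 node. Against them skin had 627 genes higher (3.18%) and 850 lower (4.31%), together 7.48% of the genes tested, and 390 lower without skin replicate 4, or 406 and 443 lower without Mem_LN replicate 1 or 2. Both comparisons use the same skin libraries, and 912 genes were called in both in the same direction. Of the cell cycle lists, 0 of 36 replication and 0 of 35 mitosis genes were called in either direction by limma between skin and Mem_LN, and 2 of each list were lower in skin at an unadjusted p under 0.05. Mki67 lay at 2.29 to 6.86 TPM in skin, 4.94 to 9.20 TPM in Mem_LN and 33.7 to 43.5 TPM on day 12. Several residency genes did not pass the test between skin and the memory node. Itgae lay at 107 to 575 TPM in skin, against 176 to 478 TPM in Mem_LN (log2 change 0.06 ± 0.61, adjusted p = 0.971). The ranges of Itga1 were 8.24 to 61.0 TPM in skin and 16.6 to 59.2 TPM in Mem_LN (log2 change -0.13 ± 0.66, adjusted p = 0.938), and those of Cxcr6 were 339.7 to 1244 TPM in skin and 1256 to 3005 TPM in Mem_LN (log2 change -1.30 ± 0.48, adjusted p = 0.103). Zfp683 averaged lower in skin, at 3.29 to 26.2 TPM, against 28.4 to 75.0 TPM in Mem_LN, without passing the test (log2 change -1.71 ± 0.56, adjusted p = 0.0556).

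Immediate early genes, in contrast, were higher in skin than in Mem_LN at 29 of 35 members, with a median of 2.96. Nr4a1 lay at 533 to 2954 TPM in skin, against 8.86 to 150.0 TPM in Mem_LN (log2 change 5.66 ± 0.81, adjusted p = 3.28e-05), and Hspa1b, a heat shock gene, at 219 to 2888 TPM in skin, against 1.61 to 102 TPM in Mem_LN (log2 change 6.85 ± 1.13, adjusted p = 0.000198). Cd69 was also higher in skin, at 295 to 1120.5 TPM, against 108 to 155 TPM in Mem_LN (log2 change 2.26 ± 0.46, adjusted p = 0.00225), as was Ifng, at 839 to 3230.2 TPM in skin, against 65.2 to 211 TPM in Mem_LN (log2 change 3.89 ± 0.59, adjusted p = 6.42e-05). Residency genes as a list gave 9 higher and 2 lower of 37 here. S1pr1 was lower at 0.80 to 10.1 TPM in skin, against 19.4 to 48.9 TPM in Mem_LN (log2 change -2.83 ± 0.88, adjusted p = 0.0444), but lost the call when any single library of these groups other than skin replicate 3 was left out, with adjusted p up to 0.168. Slamf6 was lower at 1.48 to 4.83 TPM in skin, against 33.0 to 109.6 TPM in Mem_LN (log2 change -4.03 ± 0.92, adjusted p = 0.00604). Type I interferon genes gave 9 lower of 28 with a median of -1.37. List counts against Mem_LN, here and above, were not repeated with a library left out. Keratinocyte markers were higher in skin than in Mem_LN at 18 of 19 members and B cell markers lower at 8 of 10.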

How the data were processed

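RNA of CD8+ Thy1.1+ Pmel T cells was sequenced in bulk, in 32 libraries of 8 groups of 4. The submitters' processing notes name Bowtie and the mm10 build, and no version, annotation or counting step was found in the labels. The authors deposited natural log values of TPM + 1 and no counts, which leaves each library's depth and counting error unknown. Converted back, each library sums to between 999999.06 and 1000000.8 TPM in steps of 0.01. Hyphens lost in 2171 gene names were restored from the reference, and 40308 names (86.7%) matched 1 symbol.

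Of 46517 genes, 19738 reached 1 TPM in at least 4 libraries and were tested on log2(TPM + 1), a scale that understates changes of low genes. All 8 groups entered 1 linear model (limma 3.58.1, R 4.3.3) with a variance trend, and p-values of each comparison were adjusted over all genes by Benjamini-Hochberg, with calls at 0.05. Errors of log2 changes are standard errors, with n = 4 libraries per group. The fit was also run on simulated data with planted changes, and their recovery is not reported here. Marker sums were compared by exact two-sided permutation of the libraries. Sums, exact tests and figures were made in Python 3.11.15 with SciPy 1.17.1, NumPy 2.4.6, Matplotlib 3.10.9 and pandas 2.3.3. Promoters came from a RefSeq table.

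The members, the 23 program lists and 11 marker lists were chosen with earlier results of these data known. Genes are named by a rule: 14 core genes (1 of them not reported here), the 10 largest called changes per direction without overlap and with a mean log2 of at least 3 (predicted genes, receptor segments and other cells' markers left out), and up to 6 called members per list and direction, of which a part is printed. Alternatives were a pseudocount of 0.1, no filter, a filter of 5 TPM, only the groups compared, group weights, a replicate block and quantile normalization. Others were rescaling without mitochondrial, marker and abundant predicted genes, and leaving out each library. Leaving out skin replicates 3 and 4 together was added after the values were seen.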

Additional observations from a re-analysis of the deposited data

Results flagged for a closer look

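Among 218 groups of 4 values examined, 29 held a library whose gap to the nearest other, as a share of the group's range on the log2 scale, exceeded Dixon's critical value for 4 samples. Chance flags about 1 in 20 such groups. Of the 29, 20 lay in skin replicate 4, the library with the high share of predicted genes, and all but 1 of these were low. They were, in TPM, Trbv14 at 2257, the T cell identity sum at 5618, Cxcr6 at 340, Vps37b at 149, Rasgrp2 at 9.46, Ccr7 at 1.60, Pdcd1 at 42.7, Tsc22d3 at 419, Crem at 188, Ier5l at 11.0, Dusp5 at 186, Ccl1 at 14.1, Klrc1 at 216, Cd160 at 4.10, Ifngr1 at 121, Zeb2 at 9.70, Pmepa1 at 3.69, Itgb1 at 34.3 and Hilpda at 82.3. The pseudogene Rpl38-ps2 was high there at 39.2 TPM, against 0 in the other skin libraries.

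The other skin values set apart were Izumo1r at 0.99 TPM in replicate 1 and the B cell sum at 132 TPM in replicate 3, both above the rest of their group. Among the day 12 libraries, replicate 4 was high for Rasgrp2 at 356 TPM, Areg at 0.18 TPM and Apoc1 at 0.08 TPM and low for Mcm5 at 179 TPM and Plin2 at 6.32 TPM. Day 12 replicate 2 was high for Hspa1a at 0.42 TPM, and replicate 3 for the CD4 and regulatory T cell sum at 38.3 TPM.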

How the results depend on the processing

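Of 98 genes named, 91 were called between skin and the day 12 lymph node, 84 of them whichever single library was left out and 79 under every alternative run; all 91 kept their sign. Genes called higher numbered 1632, and 1074 with a filter of 5 TPM, 2566 with weights per group and 1152 to 1657 with 1 library left out. Genes called lower numbered 1838, and 2857 with only the compared groups, 3274 with weights per group, 1205 to 1781 with 1 library left out and 914 without skin replicates 3 and 4. Against Mem_LN, 627 were higher, with 322 under the 5 TPM filter, 323 with only the compared groups and 417 to 710 with 1 library left out, and 850 were lower, with 531 at a pseudocount of 0.1, 1784 with weights and 390 to 807 with 1 library left out. The cause of these shifts was not tested. Same-numbered skin and day 12 libraries deviated together at correlations of 0.09, -0.09, 0.21 and 0.12, and skin and Mem_LN libraries at 0.08, 0.17, 0.02 and 0.47. Different-numbered libraries deviated together at -0.238 to 0.224 for day 12 and at -0.454 to 0.323 for Mem_LN. These values cannot decide whether the numbers pair the samples, and the main model used no pairing. With the replicate block 1684 genes were higher and 1915 lower, and 638 and 892 against Mem_LN, and all 91 calls remained.

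The difference of the T cell identity sums was -5857 TPM and ranged from -9369 to 274 TPM with 1 library left out, the positive value without skin replicate 4. That of the NK cell sums was 158 TPM and ranged from -164 to 384 TPM, the negative value without skin replicate 3. As a percent of the T cell identity sum, no marker list changed direction. Cd8a, not called, changed by 0.05 and by -0.07, -0.24 and -0.14 without skin replicate 1, 2 or 3, and by 0.65 without replicate 4. Without read counts, the depth of a library sets no stated limit here, and values under 1 TPM are the least certain.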

Other observations

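Some gene families outside the lists were picked after their values were seen and are therefore given without a test of the family. Of 6 Ifitm genes 1 was higher and 0 lower in skin, with a median log2 change of 0.78. Of 15 Serpinb genes 5 were higher and 0 lower, with a median of 0.48, against 8.27% higher among all genes. Gimap and histone genes moved with named genes. Of 9 genes with Gimap names, 7 were lower and 0 higher in skin than in the day 12 lymph node by limma, with a median log2 change of -2.44, against 9.31% lower among all genes. All but Gimap1os encode GTPases of lymphocyte survival. Gimap1os, an opposite-strand transcript, is among the 7, and its log2 change of -2.44 (limma, adjusted p = 0.0017) is the median. Their sums were 304, 314, 304 and 81.8 TPM in skin and 1441, 1419, 1433 and 1314 TPM on day 12. Of 61 Hist1h and Hist2h histone genes, 31 were lower and 4 higher, with a median of -1.33. Their sums were 1083, 1020, 1550 and 415 TPM in skin and 8164, 8605, 10117 and 11230 TPM on day 12. Many histone genes are close copies of each other, so values of single members are uncertain. For the sums of the Gimap and histone genes, every skin library lay below every day 12 library.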
